A study of Mus musculus with 6 samples.

Results

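The genes described here are 10 members of one activating receptor system of myeloid cells: the signalling adaptors Tyrobp (DAP12) and Hcst (DAP10), the receptors Trem1, Trem2, Trem3, Treml2, Clec5a, Sirpb1a and Sirpb1c, and the kinase Syk. They were found by symbol among the 54532 genes of the deposited table, each symbol matched 1 row, and all 10 passed the filter on low values that left 10913 genes for testing. RNA was sequenced from cells that carry CD11b, taken from the tibia marrow of mice aged 12 weeks. There are 3 libraries of Tshr+/+ (wild-type) mice and 3 of Tshr-/- mice, which lack the receptor of thyroid-stimulating hormone according to the titles and carry a knockdown according to another label. One label names osteoclast differentiation as a treatment, with no time and no culture described. Neither the part of Tshr that the allele removes nor the sex or strain of the mice is in the labels, and no other allele or agent is named for either group.

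TYROBP is a small membrane protein with hardly any outer domain and a tail that carries an ITAM, a pair of tyrosines that Src family kinases phosphorylate. Receptors with a short tail pair with it through charged residues in the membrane, and the phosphorylated ITAM recruits Syk, which passes the signal to phospholipase C gamma, calcium and NFATc1. HCST pairs with receptors in the same way and recruits PI3 kinase. In osteoclast precursors this route co-stimulates RANK, and loss of TYROBP or TREM2 function is known to disturb bone and microglia in people. Treml2 is included as a relative of the Trem genes at the same locus, and Syk and Hcst are no receptors, so the set is a receptor system rather than a list of TYROBP partners.

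Genes that sit side by side make up a large part of the set. Tyrobp (ENSMUSG00000030579, chromosome 7, 30413760 to 30417585, plus strand) and Hcst (ENSMUSG00000064109, chromosome 7, 30417712 to 30419854, minus strand) point toward each other with 126 bases between their ends in GRCm38. Trem1 (48232768 to 48246924), Trem3 (48247777 to 48258841), Treml2 (48299498 to 48312533) and Trem2 (48346401 to 48354147) lie in that order on the plus strand of chromosome 17, within 121 kb. Clec5a lies on chromosome 6 (40574894 to 40585821, minus strand), Syk on chromosome 13 (52583173 to 52648792, plus strand), Sirpb1a on chromosome 3 (15371653 to 15426520, minus strand) and Sirpb1c on the same chromosome (15795145 to 15848528, minus strand). These positions equal those of GENCODE M21 for all 10 genes.

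The Sirpb1 genes are near copies of each other, and their start-site windows show how close they are. RefSeq windows on GRCm38.p6, from 250 bases before to 50 after the start, are given for Sirpb1a (chr3:15426378-15426677), its neighbour Sirpb1b (chr3:15575016-15575315) and Sirpb1c (chr3:15848438-15848737), all on the minus strand. Capitals mark the longest stretch that the 3 windows share, 26 bases.
Sirpb1a: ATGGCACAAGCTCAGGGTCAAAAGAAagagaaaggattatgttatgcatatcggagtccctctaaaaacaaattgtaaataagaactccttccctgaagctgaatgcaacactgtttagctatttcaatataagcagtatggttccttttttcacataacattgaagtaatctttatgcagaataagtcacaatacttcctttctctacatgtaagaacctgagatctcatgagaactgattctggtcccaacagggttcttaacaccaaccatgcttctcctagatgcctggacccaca
Sirpb1b: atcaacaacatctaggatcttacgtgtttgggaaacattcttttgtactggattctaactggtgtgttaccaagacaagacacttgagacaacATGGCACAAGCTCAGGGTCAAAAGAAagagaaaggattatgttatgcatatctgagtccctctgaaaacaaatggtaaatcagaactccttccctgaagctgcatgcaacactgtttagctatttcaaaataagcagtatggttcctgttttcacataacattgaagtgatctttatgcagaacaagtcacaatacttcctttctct
Sirpb1c: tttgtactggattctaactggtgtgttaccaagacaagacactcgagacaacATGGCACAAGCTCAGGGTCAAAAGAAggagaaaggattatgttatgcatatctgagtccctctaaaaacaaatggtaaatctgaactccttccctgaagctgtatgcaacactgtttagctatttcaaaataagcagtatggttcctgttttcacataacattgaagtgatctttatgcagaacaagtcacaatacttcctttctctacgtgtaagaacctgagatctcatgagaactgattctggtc
The window of Sirpb1a matched that of Sirpb1c at 95.6% of 248 aligned positions, and that of Sirpb1b matched Sirpb1c at 98.1% of 259. Within transcripts, 23.0% of the distinct 100-base stretches of Sirpb1a and 32.1% of those of Sirpb1c also occur in a transcript of another gene, while the other 8 genes shared none. No source used here says how the authors counted fragments that match several genes, so the values of Sirpb1a and Sirpb1c are uncertain.

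Trem1 and Trem2, the most and the least abundant receptors here, are shown with the same kind of window (chr17:48232489-48232788 and chr17:48346151-48346450, plus strand). Capitals mark GAGGAA, a core bound by the myeloid factor PU.1, or its reverse complement TTCCTC.
Trem1: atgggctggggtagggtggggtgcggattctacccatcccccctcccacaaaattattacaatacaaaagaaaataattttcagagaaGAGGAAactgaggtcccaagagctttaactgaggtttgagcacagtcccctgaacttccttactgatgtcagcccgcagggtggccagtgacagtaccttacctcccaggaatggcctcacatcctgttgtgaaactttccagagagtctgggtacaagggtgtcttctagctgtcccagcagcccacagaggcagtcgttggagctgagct
Trem2: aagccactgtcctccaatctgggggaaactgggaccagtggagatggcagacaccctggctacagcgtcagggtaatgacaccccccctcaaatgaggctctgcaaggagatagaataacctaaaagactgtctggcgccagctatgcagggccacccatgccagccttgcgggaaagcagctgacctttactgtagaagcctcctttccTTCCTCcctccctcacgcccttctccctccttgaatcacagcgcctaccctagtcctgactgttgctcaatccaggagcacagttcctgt
One match lies in each window, and Clec5a held 2. The letters were found on either strand in 4 of the 8 windows of the 7 members that have one (Syk has 2, of which 1 holds a match), against 28.3% of 32851 windows of all genes. Tyrobp, Trem3 and Treml2 had no window in the table. A match of 6 letters is a description of the sequence and shows no binding.

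The libraries held between 14698126 and 17976477 fragments. Itgam, which encodes CD11b, lay between 87.4 and 134 FPKM (fragments scaled by gene length and library size). Markers of neutrophils were abundant, with 15 of 15 tested and a summed level of 120300 to 145067 FPKM in Tshr+/+ and 97456 to 149696 in Tshr-/-. Only 6 of 11 osteoclast markers passed the filter, and Calcr, the calcitonin receptor of mature osteoclasts, was listed at 0 in 5 of 6 libraries. Those that passed included Ctsk, with 3.30, 7.90 and 15.1 FPKM in Tshr+/+ and 5.51, 37.4 and 6.43 FPKM in Tshr-/-. Acp5 had 5.12, 6.10 and 11.8 FPKM in Tshr+/+ and 6.80, 29.7 and 8.92 FPKM in Tshr-/-. Tshr had 0.405 to 0.552 FPKM in Tshr+/+ and 0.414, 0.297 and 0.00825 FPKM in Tshr-/- 1, 2 and 3 (means 0.498 ± 0.0811 and 0.239 ± 0.209, SD, n = 3; exact two-sided permutation p = 0.2, the smallest possible being 0.1). The target gene thus stayed present in the libraries labelled Tshr-/- 1 and 2, and each direction below is that of the labels.

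The adaptor Tyrobp was by far the most abundant of the 10 genes. Its level was 1234, 1365 and 1178 FPKM in Tshr+/+ 1, 2 and 3, and 1378, 1425 and 1009 FPKM in Tshr-/- 1, 2 and 3. The Tshr-/- libraries held both the highest and the lowest value, so the groups overlapped fully, and the log2 fold change of Tshr-/- against Tshr+/+ was -0.00068 ± 0.17 (SE; 95% interval -0.41 to 0.41). The level followed the summed neutrophil markers at both ends: Tshr-/- 2 was highest and Tshr-/- 3 lowest in each. That sum is weighted to S100a8 and S100a9, at 25941 and 34947 FPKM in Tshr-/- 3. The mean log2 level of the 15 markers had the same ends, 11.3 and 10.8. Not all followed: Prtn3, Elane and Mpo had 507, 1191 and 536 FPKM in Tshr-/- 3, above every Tshr+/+ library. The part of cell composition in the Tyrobp level was not tested, and in RNA from many cells fewer cells of a type and less RNA per cell cannot be told apart.

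Hcst, the second adaptor, ran at a small fraction of Tyrobp. It had 77.1, 96.7 and 84.2 FPKM in Tshr+/+ and 86.2, 106 and 54.0 FPKM in Tshr-/-. As with Tyrobp, Tshr-/- 2 was highest and Tshr-/- 3 lowest, and the difference was -0.12 ± 0.25 (SE) on the log2 scale. Tyrobp exceeded Hcst by 13.5 to 18.7 times within a library. Klrk1, the NKG2D receptor that signals through HCST in NK cells, lay between 0.228 and 0.684 FPKM in these cells and was not tested. Only 4 of 10 markers of NK and T cells passed the filter, and Cd3e was at 0 in some libraries. Of the 4, Nkg7 had 57.4, 55.2 and 72.5 FPKM in Tshr+/+ and 85.4, 69.0 and 73.5 FPKM in Tshr-/-. Gzma had 3.50, 5.16 and 4.25 FPKM in Tshr+/+ and 8.96, 5.74 and 8.29 FPKM in Tshr-/- (limma, adjusted p = 0.9997). Its genotypes did not overlap, as for 6.77% of all genes, while those of Nkg7, Gzmb and Prf1 did.

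Trem1, an amplifier of neutrophil and monocyte inflammation, and Trem3, its neighbour and an activating receptor in mice, supplied most of the message of the receptors in this set. Trem1 had 396, 411 and 244 FPKM in Tshr+/+ and 374, 386 and 247 FPKM in Tshr-/-. In both genotypes the library numbered 3 stood well below the other two, and the groups overlapped (log2 fold change -0.05 ± 0.26, SE). Trem3 had 297, 338 and 292 FPKM in Tshr+/+ and 288, 329 and 210.4 FPKM in Tshr-/-. Only Tshr-/- 3 stood apart for Trem3, and its log2 fold change was -0.18 ± 0.18 (SE). Without Tshr-/- 3 it was -0.0006, so the difference rests on that library. The ratio of Trem1 to Trem3 was between 1.17 and 1.33 in 5 libraries and 0.837 in Tshr+/+ 3, so the neighbours did not keep one ratio. The span of Trem1 overlaps that of 1 other annotated gene, but no 100-base stretch of its transcripts occurs in a transcript of another gene. Strand use is not known, and how fragments in the overlap were counted was not tested.

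Trem2, a lipid-sensing receptor of macrophages, microglia and osteoclast precursors, was the scarcest of the set. Its values were 1.22, 1.04 and 1.79 FPKM in Tshr+/+ and 0.767, 1.01 and 2.27 FPKM in Tshr-/-, from 61 to 226 fragments. The library numbered 3 was the highest in each genotype, the reverse of Trem1, and Trem1 exceeded Trem2 by between 109 and 488 times. The genotype means were 1.35 ± 0.394 and 1.35 ± 0.806 FPKM (SD, n = 3), with a log2 fold change of -0.04 ± 0.26 (SE). Markers of resident macrophages summed to 157, 119 and 156 FPKM in Tshr+/+ and to 96.7, 114 and 159 FPKM in Tshr-/-; all 12 were tested and none was at 0. Tshr-/- 3 was highest and Tshr-/- 1 lowest for both Trem2 and this sum. At the top the sum was nearly level, with 159, 157 and 156 FPKM in Tshr-/- 3, Tshr+/+ 1 and Tshr+/+ 3. Trem2 had 2.27, 1.22 and 1.79 FPKM in the same libraries. The part of macrophages in the Trem2 level was not tested. The table divides Trem2 by 4946 bases, while its longest coding transcript has 1088 and a transcript with a retained intron has 4784, so its level per length depends on the gene model.

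Treml2, a relative expressed on several leukocyte types, came nearest to a genotype difference among the uniquely matched genes. It had 29.5, 33.2 and 37.6 FPKM in Tshr+/+ and 40.9, 42.0 and 36.3 FPKM in Tshr-/-. Tshr+/+ 3 lay above Tshr-/- 3, so the groups overlapped by that pair of libraries alone. The log2 fold change was 0.25 ± 0.13 (SE; 95% interval -0.05 to 0.54) and did not pass (limma, unadjusted p = 0.0910, adjusted p = 0.9997).

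Clec5a, a C-type lectin that recognises viral glycans and pairs with TYROBP, had 26.2, 31.1 and 39.3 FPKM in Tshr+/+ and 33.3, 41.9 and 27.7 FPKM in Tshr-/-. No order by genotype was seen, since the number 3 library was the highest of one group and the lowest of the other (log2 fold change 0.09 ± 0.20, SE).

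The activating signal-regulatory proteins Sirpb1a and Sirpb1c were low. Sirpb1a had 5.28, 4.27 and 5.90 FPKM in Tshr+/+ and 6.54, 4.76 and 6.74 FPKM in Tshr-/-, with a log2 fold change of 0.19 ± 0.16 (SE) that was 0.079 without Tshr+/+ 2 and 0.11 without Tshr-/- 3. Sirpb1c had 3.81, 3.34 and 4.24 FPKM in Tshr+/+ and 5.05, 4.20 and 7.52 FPKM in Tshr-/-. The lowest Tshr-/- value of Sirpb1c fell just under the highest Tshr+/+ value, and Tshr-/- 3 stood above all others. Its log2 fold change, 0.43 ± 0.20 (SE; 95% interval -0.03 to 0.89), had the largest size and the smallest p of the 10 genes (limma, unadjusted p = 0.0642, adjusted p = 0.9997), and it was 0.23 without Tshr-/- 3. The near copy Sirpb1b, more abundant at 13.1 ± 0.433 and 15.1 ± 3.65 FPKM (SD, n = 3), had its lowest value in Tshr-/- 3.

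Syk, the kinase that binds the phosphorylated ITAM, had the largest SD between libraries on the log2(FPKM + 1) scale, which compresses low genes. It had 119, 112 and 60.2 FPKM in Tshr+/+ and 90.8, 92.6 and 67.9 FPKM in Tshr-/-. Tshr+/+ held both the highest and the lowest value, with the number 3 library lowest in each genotype (log2 fold change -0.16 ± 0.28, SE). The SD of its log2 values over the 6 libraries was 0.38, against a median of 0.19 over all genes tested. By the ratio of the highest to the lowest library Trem2 (2.96) and Sirpb1c (2.25) exceeded Syk (1.97).

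**Figure D1:**
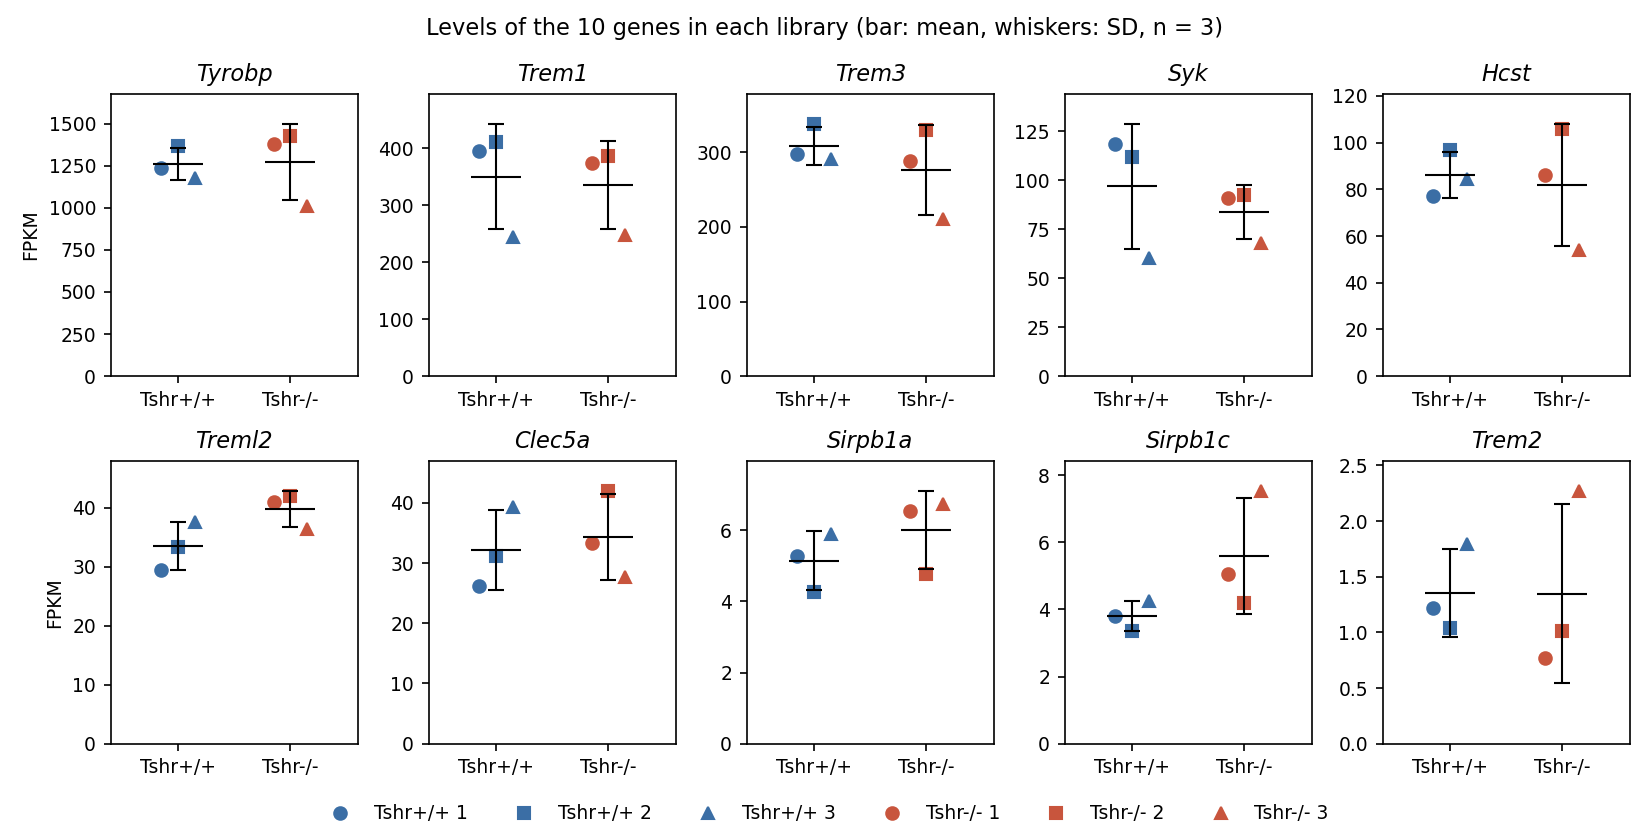
FPKM (linear axis from 0) of each gene in the 3 Tshr+/+ libraries (blue) and the 3 Tshr-/- libraries (red), with marker shape for the library number and black bars for mean and SD (n = 3). Values of the genotypes overlap in all 10 panels; the triangles of library number 3 are lowest for Trem1 and Syk and highest for Trem2 in each genotype.

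By level per length the order was Tyrobp, Trem1, Trem3, Syk, Hcst, Treml2, Clec5a, Sirpb1a, Sirpb1c and Trem2, from a mean of 1265 down to 1.35 FPKM over the 6 libraries. Trem1 and Trem3 overlapped in range, as did Syk and Hcst, Treml2 and Clec5a, and Sirpb1a and Sirpb1c, so the order within these pairs is not set beyond their spread. The summed level of the 7 receptors was between 53.0% and 61.5% of Tyrobp in a library. Trem1 and Trem3 made up 85.0% to 91.3% of that sum, and its lowest values were 624 FPKM in Tshr+/+ 3 and 538 FPKM in Tshr-/- 3. Receptors outside the set that can pair with TYROBP, such as Cd300lb, are not in this sum.

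None of the 10 genes differed between the genotypes past the threshold of an adjusted p of 0.05 (limma, 0 of 10; 0 of all 10913 genes tested, or 0%). At an unadjusted p under 0.05 stood 0 of the 10 genes, against 317 of all genes (2.90%). The genotypes overlapped for each of the 10, while they did not overlap for 739 of all genes (6.77%). The median log2 fold change was -0.02 over the 10 genes, 4 above and 6 below 0, and -0.01 over all genes. On the log2(FPKM + 1) scale the 95% intervals ran from -0.05 to 0.54 for Treml2, the narrowest, to -0.82 to 0.49 for Syk, the widest. With a pseudocount of 0.1 the SE was larger for Trem2 (0.43) than for Syk (0.28).

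Without the libraries labelled Tshr-/- 1 and 2, in which Tshr was present, Tshr-/- 3 alone was set against Tshr+/+ and assumed to vary as they do. Sirpb1c was then at 0.83, Hcst at -0.66 and Trem3 at -0.55 on the log2 scale. Tyrobp was at -0.32, Trem1 at -0.46, Syk at -0.45 and Sirpb1a at 0.34. These values are those of a single Tshr-/- library. Its total of FPKM was the lowest, 348454 against 395049 to 451384 in the others, and the part of scaling in these values was not tested.

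**Figure D2:**
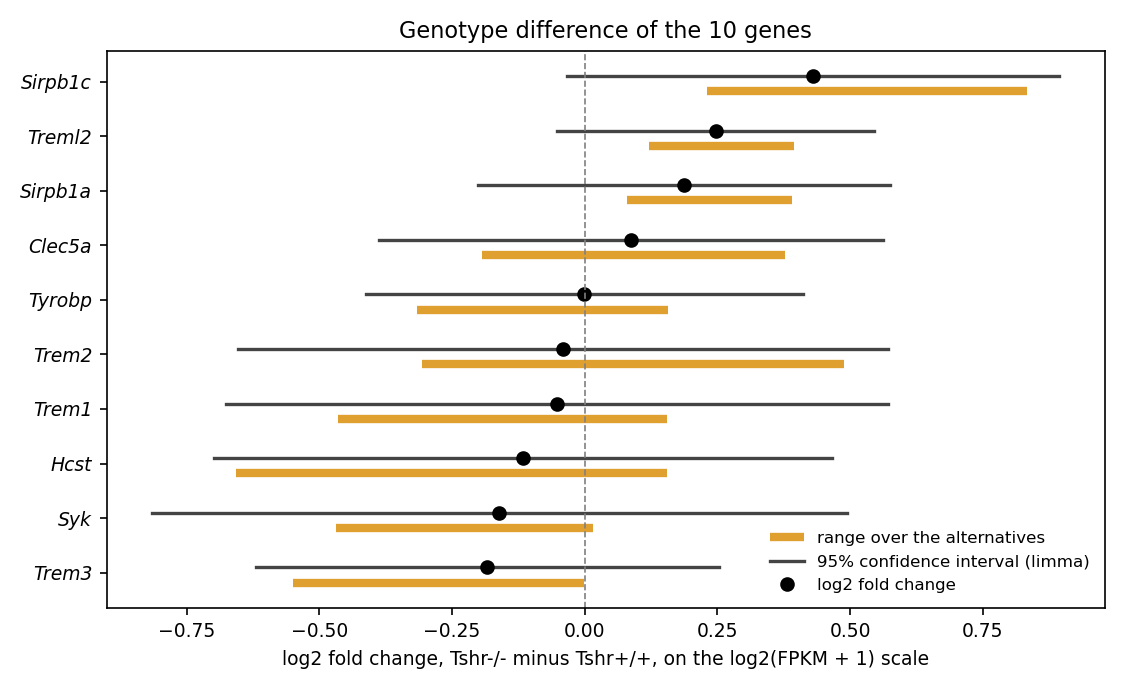
Log2 fold change of Tshr-/- against Tshr+/+ on the log2(FPKM + 1) scale for each gene (black point), with its 95% confidence interval from limma (dark line) and its range over the alternative analyses (orange line). Each interval includes 0, and the orange range stays on one side of 0 for Treml2, Sirpb1a and Sirpb1c and ends at -0.0006 for Trem3.

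Deviations from the group means correlated at 0.24, 0.26 and 0.47 between libraries that share a number, though Tshr+/+ 2 with Tshr-/- 1 reached 0.34. The labels do not say that the numbers pair animals. Differences within each number are given too. Sirpb1c was higher in Tshr-/- by 0.33, 0.26 and 0.70 on the log2 scale in numbers 1, 2 and 3, and Sirpb1a by 0.26, 0.13 and 0.17. Trem3 differed by -0.04, -0.04 and -0.47. These 3 of 10 genes kept one sign in all 3 pairs, which 26.7% of all genes did, a share close to theirs. Syk differed by -0.38, -0.27 and 0.17, Treml2 by 0.46, 0.33 and -0.05, Clec5a by 0.34, 0.42 and -0.49, and Hcst by 0.16, 0.13 and -0.63. For these genes the pair numbered 3 went against the others.

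Several of the 10 genes, like many of all genes tested, had an extreme value in the number 3 libraries of both genotypes. Tyrobp, Trem1, Trem3 and Syk had their lowest value there in both genotypes, 4 of 10 genes against 24.2% of all genes tested, and Trem2, Sirpb1a and Sirpb1c had their highest, 3 of 10 against 22.0%. The second share differs little from the background. The first exceeds it by few genes in a set of 10, and this excess was not tested. For Trem1 and Syk the low and for Trem2, Sirpb1a and Sirpb1c the high position held under the deposited scaling, equal totals of FPKM, median of ratios and quantile normalization. With equal totals the shares over all genes were themselves 8.84% lowest and 45.4% highest, and Treml2 joined the highest, which made 4 of 10 genes, near that share. With quantile normalization they were 19.5% and 27.3%, and 2 and 3 of the 10 genes were lowest and highest, near those shares. With equal totals 2 of the 10 were lowest, against 8.84%. The low position of Tyrobp and Trem3 was lost with equal totals and with quantile normalization.

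**Figure D3:**
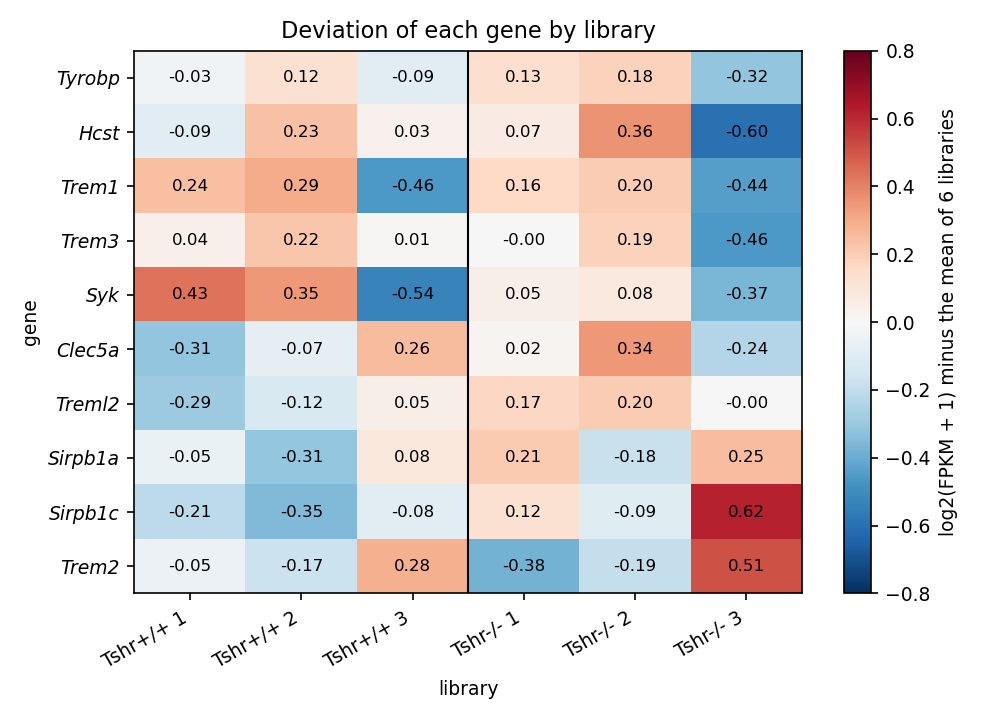
Log2(FPKM + 1) of each gene (rows) minus its mean over the 6 libraries (columns), in colour and as the printed value. Trem1 and Syk are lowest in Tshr+/+ 3 (-0.46 and -0.54) and Tshr-/- 3 (-0.44 and -0.37), where Trem2 is highest (0.28 and 0.51).

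The genes whose levels followed Tyrobp most closely over the 6 libraries were Skap2, an adaptor of leukocyte adhesion (Pearson r = 0.994, Spearman rho = 1), Plcl2, a phospholipase C-like protein (0.985 and 0.943), and Atg7, an enzyme of autophagy (0.985 and 1). Without the libraries farthest from the median, Tshr+/+ 3 and Tshr-/- 3, r was 0.978, 0.977 and 0.989. For Syk they were Cwc25, a splicing factor (0.998 and 1), Kdm5a, a histone demethylase (0.998 and 0.943), and Dedd2, a death-effector protein (0.997 and 1), with r of 0.996, 0.990 and 0.996 without the same libraries. Cwc25 had 36.7, 34.2 and 10.6 FPKM in Tshr+/+ and 23.5, 25.2 and 14.1 FPKM in Tshr-/-, the same order of libraries as Syk. These are the best of 4881 and 2335 candidates over 6 points that share each library's cell makeup and depth, so they carry no p.

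Around the receptors, 58 of 73 genes on 7 lists of the pathway passed the filter, and none differed by adjusted p (limma, 0 higher and 0 lower). Of the 58, 31 lay above and 27 below 0 with a median log2 fold change of 0.02. The genotypes did not overlap for 8 of the 58, among them Cbl, Fcer1g, Cd300lb, Apoe and H60b, against 6.77% of all genes. Each gene named in the next paragraphs had an adjusted p of 0.9997.

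Fcer1g, the other ITAM adaptor of myeloid cells, was lower in every Tshr-/- library than in any Tshr+/+ library. It had 672, 783 and 589 FPKM in Tshr+/+ and 504, 567 and 477 FPKM in Tshr-/-, a log2 fold change of -0.40 ± 0.15 (SE) that did not pass. Tyrobp exceeded Fcer1g by 1.74 to 2.00 times in Tshr+/+ and by 2.12 to 2.74 times in Tshr-/-. The ratio was not tested. Over the 13 tested genes of other receptors and Fcer1g, 6 lay above and 7 below 0 (median -0.04), and Cd300lb, another receptor that can pair with TYROBP, had 60.3 ± 2.10 and 49.6 ± 8.78 FPKM (SD, n = 3).

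Ligands and sheddases include partners of TREM1, TREM2 and NKG2D. Pglyrp1, a peptidoglycan-binding granule protein and a ligand of TREM1, was abundant at 870 ± 118 and 862 ± 228 FPKM (SD, n = 3). Apoe, a lipoprotein that TREM2 binds, had 179, 134 and 129 FPKM in Tshr+/+ and 82.6, 99.7 and 106 FPKM in Tshr-/-. It was lower in each Tshr-/- library than in any Tshr+/+ library (log2 fold change -0.60 ± 0.17, SE; limma, unadjusted p = 0.00919) and is itself a macrophage product. H60b, a ligand of NKG2D, had 1.92 ± 0.465 and 3.35 ± 0.799 FPKM. Cd177, the neutrophil surface protein on this list, was the most abundant at 1128 ± 135 and 1042 ± 185 FPKM. Over 8 tested genes the list had a median of 0.0091, 4 above and 4 below 0.

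Among kinases next to the ITAM, Btk, a Tec family kinase, had 23.9 ± 4.68 and 27.3 ± 2.02 FPKM (SD, n = 3). The median log2 fold change was 0.05 for the 6 kinases tested and 0.06 for the 11 adaptors and exchange factors tested. Cbl, a ubiquitin ligase that limits such signals, had 31.8 ± 0.918 and 40.5 ± 3.20 FPKM, Lat2, a membrane adaptor, 4.87 ± 0.670 and 3.33 ± 0.892, and Grb2, the most abundant, 94.1 ± 2.56 and 89.7 ± 6.46. The median was 0.08 over 6 lipid enzymes, among them Pik3r5 and Pik3cd, PI3 kinase subunits with log2 fold changes of 0.34 ± 0.19 and 0.29 ± 0.16 (SE), and Plcg2 at 0.02 ± 0.11.

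Downstream toward transcription the median was -0.05 over 8 tested genes. Malt1, a protease of the CARD9 complex, had 15.2, 13.1 and 4.36 FPKM in Tshr+/+ and 7.36, 6.11 and 4.57 FPKM in Tshr-/-, lowest in number 3 of each genotype as Syk was. Ppp3r1, a calcineurin subunit, had 31.8 ± 1.50 and 28.9 ± 0.548 FPKM (SD, n = 3). The phosphatases and Dok adaptors that oppose the ITAM had a median of 0.0042 over 6 genes. Ptpn6 (SHP-1) had 157 ± 16.0 and 168 ± 18.6 FPKM and Inpp5d (SHIP1) 38.8 ± 7.73 and 40.7 ± 5.44. Dok3 was the most abundant at 205 ± 2.42 and 195 ± 34.6 FPKM, while Dok2 and Dok1 had log2 fold changes of -0.15 ± 0.13 and 0.15 ± 0.20 (SE).

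**Figure D4:**
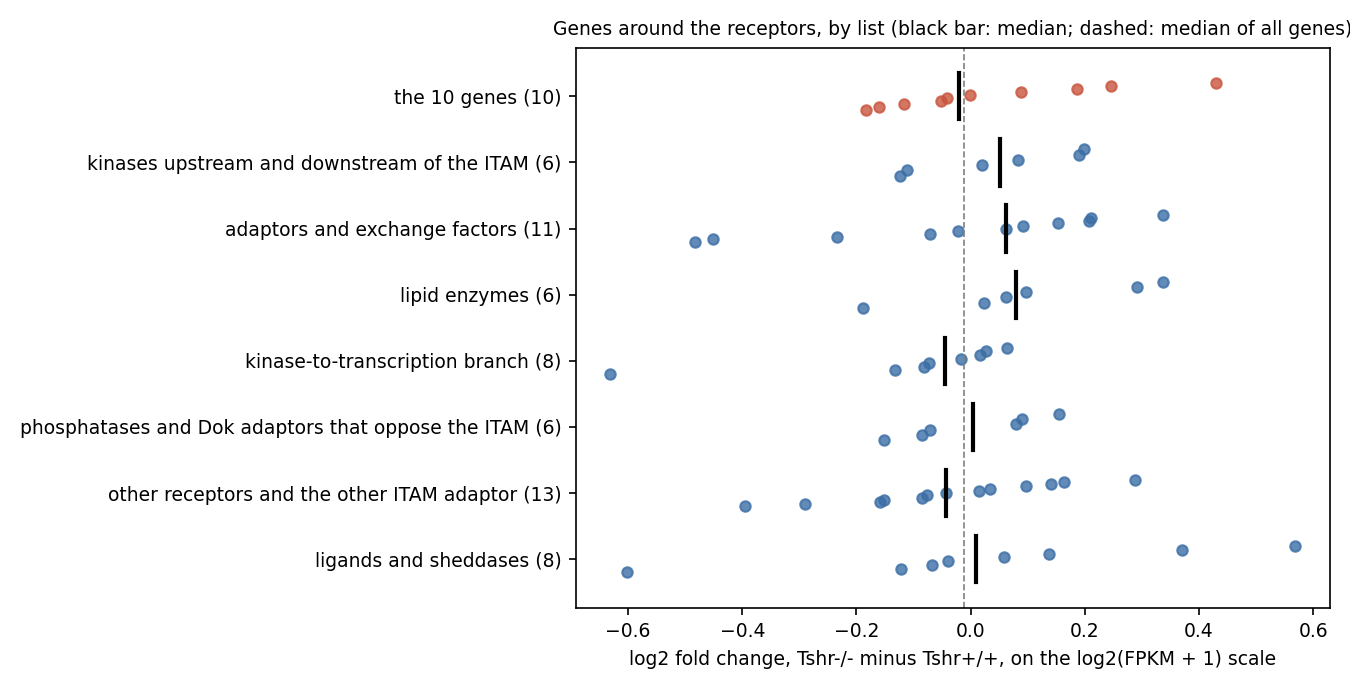
Log2 fold change of Tshr-/- against Tshr+/+ on the log2(FPKM + 1) scale for each tested gene (points), by list with the number of genes in brackets; black bars are medians and the dashed line is the median of all genes. The medians of the 7 pathway lists lie between -0.05 and 0.08, and no gene shown passed the threshold.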

How the data were processed

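The deposited table gives FPKM per gene and library, made by the authors. Per the submitters' processing notes the build was GRCm38 (mm10). The aligner, counter and use of strand were not given in the sources used here. The file headers give WT and HO with numbers 1 to 3; HO was taken to mean homozygous (Tshr-/-) and the numbers to be those of the titles. FPKM multiplied by length came out as whole fragments (100% of values within 0.01) after division by a constant of each library.

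A gene was tested if 3 or more libraries had 1 FPKM or more. Groups were compared on log2(FPKM + 1) with limma 3.58.1 in R 4.3.3 (trend, two-sided, Benjamini-Hochberg over all genes tested, threshold 0.05); fold changes on this scale understate those of low genes. Whether libraries are separate animals is not stated beyond the titles, so p-values measure the spread between these libraries, which may be technical. A test on simulated data with known changes was run first. Members and lists were chosen with earlier results of these data known. Named from each list were the members with the smallest p, the most abundant and partners given a role; Klrk1 was named after its values were seen, and Sirpb1b as a near copy. Some genes that this rule names are not reported here. Genes most like Tyrobp and Syk had a mean of at least 5 FPKM and at least 0.5 times the SD of that gene.

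Deviations from the group means correlated across genes at 0.24, 0.26 and 0.47 between libraries of the same number, each above 0.1. Tshr+/+ 2 with Tshr-/- 1 reached 0.34, so these values do not establish that the numbers pair the samples. The reported fit used no pairing, and a fit with the replicate number as a block was run as an alternative. Alternatives covered pseudocounts, filters, scalings, robust moderation, array weights, voom on whole fragments, the replicate block and each library left out. The alternative without both libraries numbered 3 was chosen after seeing the data. Matching of promoter windows used Biopython 1.88.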

Additional observations from a re-analysis of the deposited data

How the results depend on the processing

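With 3 libraries a group the precision is low, and the size of difference that could pass was not determined. None of the 10 genes passed the threshold under any of the 19 alternatives, and the sign of Trem3, Treml2, Sirpb1a and Sirpb1c did not change, though their sizes did: leaving out 1 library gave -0.32 to -0.0006, 0.16 to 0.33, 0.079 to 0.32 and 0.23 to 0.59. The filter of a mean of at least 5 FPKM removed Trem2 and Sirpb1c, so it gives no value for them. The count of all genes past the threshold was 24 with array weights and 24 without both libraries numbered 3, and ranged from 0 to 2 when 1 library was left out (2 without Tshr-/- 3); it was 0 under the others. With the replicate block the counts were 0 of all genes and 0 of the 10, and no call changed. The block leaves fold changes as they are in this balanced design; the unadjusted p of Sirpb1c went from 0.0642 to 0.0181 (limma, adjusted p = 0.820, smallest over its alternatives 0.113), and 651 genes in place of 317 had an unadjusted p under 0.05.

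Tyrobp, Hcst, Trem1, Trem2, Clec5a and Syk changed direction under at least one alternative, and the cause was not tested. Tyrobp was at 0.051 with equal totals, 0.022 with array weights, 0.0021 with voom and 0.11 without both libraries numbered 3, where Hcst was at 0.14. Trem2 was at 0.00038 with equal totals and, without Tshr-/- 1 and 2, at 0.49, where Clec5a was at -0.19. Leaving out 1 library gave -0.092 to 0.16 for Tyrobp, -0.32 to 0.15 for Hcst, -0.29 to 0.15 for Trem1, -0.31 to 0.14 for Trem2, -0.063 to 0.24 for Clec5a and -0.47 to 0.015 for Syk. The Tshr difference ranged from -0.346 to -0.143 FPKM. With array weights the smallest adjusted p of the 10 genes was 0.108, for Treml2.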
